A study of Arabidopsis thaliana with 8 samples.

Results

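The later response of *Arabidopsis thaliana* miRNAs to 24-epibrassinolide (EBR), a highly active brassinosteroid, was read from the 4 arrays of seedlings sampled at 180 min, out of 8 arrays in the series. The members were chosen by their titles: EBR180 stands for seedlings given 10 nM EBR for 180 min and mock180 for seedlings given the solvent DMSO for the same time, with 2 arrays each. The other 4 arrays, EBR30 and mock30, hold the same treatments at 30 min. All groups were wild-type Columbia (Col-0) seedlings of 7 days, shaken in sucrose-containing liquid medium under continuous light, and RNA came from complete seedlings, so that roots and shoots are mixed. A lower value in such RNA cannot tell fewer cells of a type from less miRNA per cell. The submitters state that independent experiments were made at each time, and the titles number the arrays 1 and 2 without saying whether a number marks an experiment. If a group's arrays share a culture, the p-values measure only the spread between arrays. The arrays hold miRNA probes only, so neither the tissue nor the response of brassinosteroid-regulated mRNAs could be checked against marker genes here.

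Brassinosteroids bind the receptor kinase BRI1 at the cell surface, which leads to inactivation of the kinase BIN2 and lets the transcription factors BZR1 and BES1 act on growth genes. Plant miRNAs are cut from hairpin precursors by DCL1, loaded into AGO1 and pair almost perfectly with their target mRNAs, which are then cleaved or kept from translation. Families conserved among land plants mostly control transcription factors of development or genes of nutrient balance, whereas many young families have few targets.

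Of the 161 miRNAs on the arrays, 43 lay above the lowest deposited value of 0.01 on all 8 arrays, and these were tested. Each was deposited as a linear ratio, with its own median across the 8 arrays set to 1, so the values compare arrays for 1 miRNA and say nothing of which miRNA is abundant. A further 114 were at 0.01 on every array and 4 on some arrays. The ratios were analysed on the log2 scale with limma, first as deposited and then with the median of the 43 miRNAs subtracted on every array (centring). As deposited, the median ratio was 1.12 and 1.02 on the EBR180 arrays and 1.07 and 1.08 on the mock180 arrays, so the groups did not differ as a whole beyond the spread of the arrays (log2 difference -0.01, p = 1 in a two-sided exact permutation test, where 2 against 2 arrays cannot go below 0.333). The EBR180 arrays differed from each other, replicate 1 being higher than replicate 2 for 41 of the 43 miRNAs with a median log2 gap of 0.14, whereas replicate 1 was higher for 21 of 43 in mock180. At 30 min replicate 1 was higher for 2 of 43 in mock30 (median log2 gap -0.14) and for 11 of 43 in EBR30. All 8 arrays enter the error of the fit. Centring takes out these array-wide gaps. It moved every log2 fold change at 180 min by 0.01 but changed the standard error, which was 0.125 for all miRNAs before centring and between 0.0374 and 0.223 after it. The calls of the 2 scalings at 180 min therefore differ through the error and not through the size of the change.

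Differences between EBR and mock at 180 min went in both directions and stayed below 1 log2 unit. How many miRNAs were called depended on the scaling and on how the error was taken. Without centring 7 of the 43 miRNAs passed an adjusted p of 0.05 (limma, Benjamini-Hochberg), which is 16.3% of those tested. The 4 that rose with EBR (9.3%) were miR395a and miR399b, which act in sulfate and phosphate balance, miR398b of the copper-linked families and miR171a, which limits GRAS transcription factors of the meristem. The 3 that fell (6.98%) were miR161.2, which targets pentatricopeptide repeat (PPR) mRNAs, and miR846 and miR854a of the less conserved list. After centring 13 miRNAs passed, or 30.2%, of which 7 rose (16.3%) and 6 fell (14%). Called in both scalings were 5 miRNAs, namely miR395a, miR399b, miR171a, miR161.2 and miR854a. miR398b and miR846 were called without centring only, and miR397a, miR172e, miR171b, miR164a, miR869.2, miR169h, miR157d and miR400 with centring only. With each miRNA's own spread over the 4 groups, which is how the one-way analysis named in the methods takes it, 0 miRNAs passed after adjustment without centring (9 at an unadjusted p under 0.05) and 7 did with centring. The fold changes of all 43 had a median of -0.02 on the log2 scale, with 21 above and 22 below 0.

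**Figure D1:**
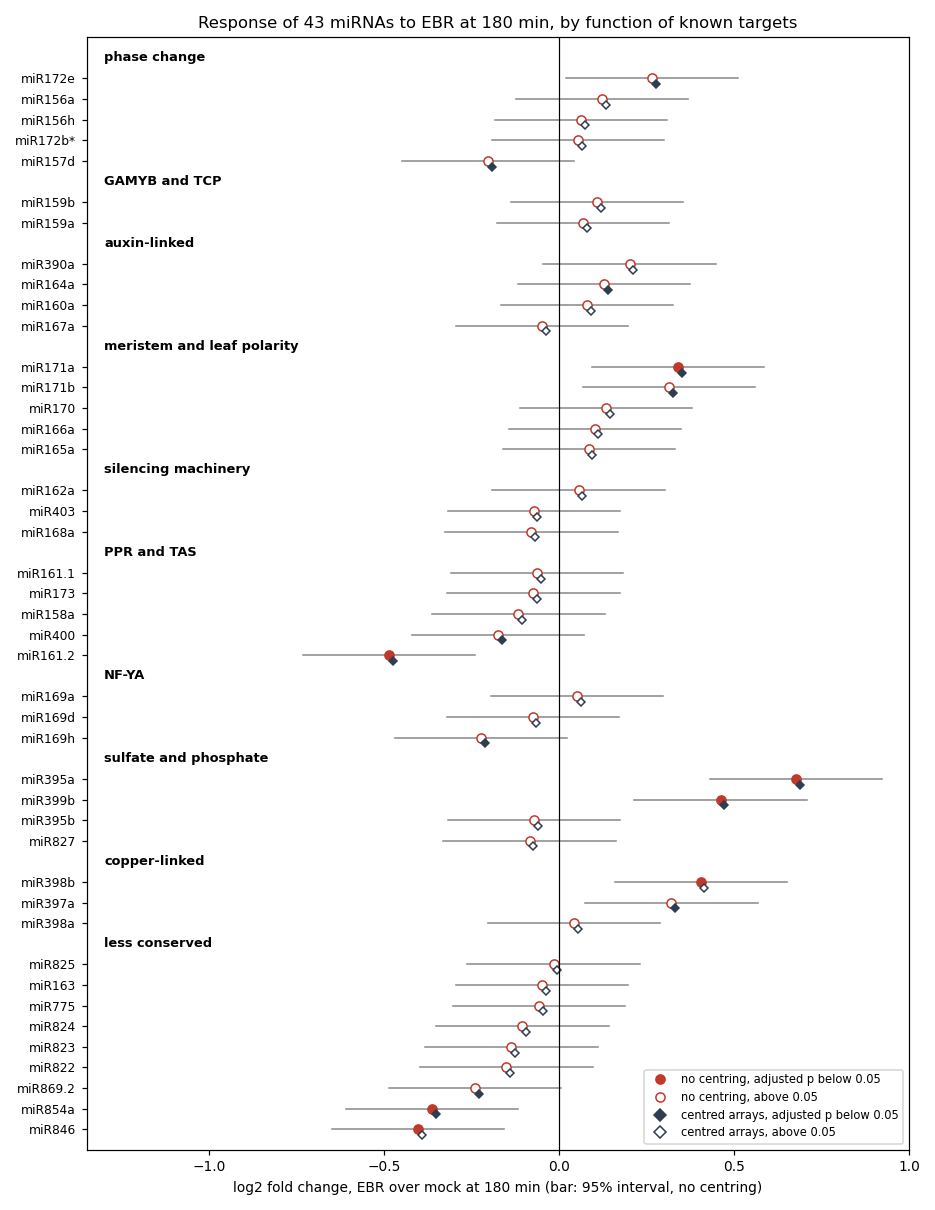
The x axis is the log2 fold change of EBR180 over mock180 and each row is 1 of the 43 tested miRNAs, grouped by the function of their known targets; circles are values as deposited with their 95% interval, diamonds are values after centring, and filled symbols passed an adjusted p of 0.05. The highest values are those of miR395a and miR399b and the lowest those of miR161.2 and miR846.

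The sulfate and phosphate list held the largest rise. miR395 is induced by sulfate starvation and targets ATP sulfurylases and a sulfate transporter, miR399 targets the phosphate regulator PHO2, and miR827 targets NLA, a ubiquitin ligase of nitrogen and phosphate balance. Of its 4 tested members 2 rose and 0 fell in both scalings. Over all tested 9.3% rose and 6.98% fell as deposited, and 16.3% and 14% after centring. The median log2 fold change of the list was 0.19 against -0.02 over all tested. The ratio of miR395a (locus AT1G26973) was 1.22 and 1.06 on the EBR180 arrays, against 0.713 and 0.710 on the mock180 arrays. Both EBR180 arrays lay well above both mock180 arrays, and the mock pair differed by far less than the EBR pair. The log2 fold change was 0.68 (95% interval 0.43 to 0.92, adjusted p = 8.47e-06 from limma) and 0.69 after centring (adjusted p = 0.000163), and it stayed past the threshold whichever array was left out. As deposited, the call of miR395a was lost with its own spread, over the 4 groups or at 180 min alone. At 30 min the ratios of miR395a were 0.988 and 1.01 with EBR and 0.991 and 1.07 in mock, so the mock180 arrays were the ones that stood apart from the other 6.

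miR399b (AT1G63005) behaved similarly with a wider spread. Its ratio was 1.28 and 1.05 on the EBR180 arrays, against 0.911 and 0.783 on the mock180 arrays, and the groups did not overlap. The log2 fold change was 0.46 (adjusted p = 0.00417 from limma) and 0.47 after centring (adjusted p = 0.0165). The call was lost without EBR180 replicate 1 in both scalings (log2 fold change 0.32 as deposited and 0.40 centred) and, as deposited, without mock180 replicate 2 (0.35). The other members gave no call: miR395b had ratios of 0.955 and 0.949 with EBR and 0.990 and 1.01 in mock (log2 fold change -0.07), and miR827 a log2 fold change of -0.08 with overlapping arrays.

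The 3 tested copper-linked miRNAs all lay above 0, as did 21 of the 43 tested. Their median log2 fold change was 0.32, although miR398a turned to -0.25 without mock180 replicate 2 and to -0.03 after quantile normalization. In each scaling 1 of the 3 rose, beside 9.3% of all tested as deposited and 16.3% after centring. It was miR398b as deposited and miR397a after centring. Copper-linked miRNAs accumulate when copper is scarce and lower copper proteins: miR397 acts on laccases, which polymerise lignin, and miR398 on the copper/zinc superoxide dismutases CSD1 and CSD2. miR397a (AT4G05105) had ratios of 1.22 and 1.06 on the EBR180 arrays, against 0.935 and 0.892 on the mock180 arrays, again without overlap. Its log2 fold change of 0.32 did not pass as deposited (adjusted p = 0.0587 from limma) and did after centring (0.33, adjusted p = 0.00547), there with every array left out in turn. miR398b (AT5G14545) had 1.15 and 0.979 with EBR and 1.02 and 0.629 in mock, so 1 mock array lay inside the range of the EBR arrays. It was called as deposited (log2 fold change 0.40, adjusted p = 0.0126) but not after centring (adjusted p = 0.165). The change rested on mock180 replicate 2: the log2 fold change was 0.05 without that array, 0.75 without mock180 replicate 1, and the call was also lost without either EBR180 array (0.29 and 0.52). miR398a had 1.05 and 1.03 with EBR and 1.24 and 0.824 in mock, a difference (0.04) well inside the spread of the mock pair.

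A further pair of copper-linked miRNAs was at 0.01 on some arrays and was not tested. miR408, which acts on plantacyanin and laccases, was at 1.07 and 0.835 on the EBR180 arrays and at 0.759 and 0.01 on the mock180 arrays. miR857, which acts on a laccase, was at 0.784 and 0.01 on the EBR180 arrays and at 0.01 on both mock180 arrays. Both were thus listed above 0.01 on more EBR180 than mock180 arrays. At 30 min the order was the opposite. Both were at 0.01 on the EBR30 arrays, whereas on the mock30 arrays miR408 was at 0.806 and 0.717 and miR857 at 0.632 and 0.667. How a value of 0.01 was set is not described, so no fold change can be given. Unlike those of the 43, the values of the 4 miRNAs at 0.01 on some arrays do not centre on 1 (miR394a reached at most 0.568). Their baseline is not described, so they compare arrays only within 1 miRNA. The remaining miRNAs of this kind, miR394a and miR843, were above 0.01 on all 4 arrays at 180 min, with overlapping groups (miR394a 0.531 and 0.485 with EBR, 0.568 and 0.434 in mock; miR843 0.754 and 0.617 with EBR, 0.694 and 0.705 in mock).

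The 5 miRNAs of meristem and leaf polarity also all lay above 0 (median log2 fold change 0.13), although miR165a turned to -0.04 without mock180 replicate 2. Of these 5 miRNAs 1 rose as deposited, beside 9.3% of all tested, and 2 after centring, beside 16.3%. miR170 and miR171 target the HAM genes, GRAS transcription factors that keep meristems undifferentiated, and miR165 and miR166 target class III HD-ZIP factors, which set the upper side of leaves. miR171a (AT3G51375) had ratios of 1.48 and 1.22 on the EBR180 arrays, against 1.10 and 1.02 on the mock180 arrays, and at 30 min 0.865 and 0.968 with EBR and 0.831 and 0.977 in mock. Here the EBR180 arrays were the highest of all 8. The log2 fold change was 0.34 (adjusted p = 0.0441 from limma) and 0.35 after centring (adjusted p = 0.0165), and the call was lost in both scalings without EBR180 replicate 1 (0.20 as deposited, 0.28 centred) or mock180 replicate 2 (0.28 and 0.29). As deposited, the same held without either EBR30 array, which leaves its size as it was. miR171b (AT1G11735) moved closely with it, at 1.46 and 1.25 with EBR and 1.16 and 1.02 in mock, and passed after centring only (log2 fold change 0.32, adjusted p = 0.0357, lost without either EBR180 array, mock180 replicate 2 or either EBR30 array). The rest were smaller and were not called: miR170 had a log2 fold change of 0.13, miR166a 0.10 and miR165a 0.08. Probes for miR170, miR171a and miR171b, and those for miR165a and miR166a, are directed at closely similar sequences, so these values may share signal.

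Among the phase-change miRNAs, miR156 and miR157 hold seedlings in the juvenile stage through SPL factors, and miR172 promotes the adult stage by lowering AP2-like factors. None of the 5 tested members passed as deposited, beside 16.3% of all tested. After centring 1 rose and 1 fell, beside 16.3% rising and 14% falling over all tested. miR172e (AT5G59505) was at 1.35 and 1.23 on the EBR180 arrays, against 1.08 and 1.06 on the mock180 arrays. The pairs were tight and apart, and the log2 fold change of 0.28 after centring passed the threshold (adjusted p = 0.00547 from limma), also with any array left out, against an adjusted p of 0.149 as deposited. miR157d (AT1G48742) was at 1.03 and 0.963 with EBR and 1.10 and 1.19 in mock, the opposite order, with a log2 fold change of -0.19 after centring (adjusted p = 0.0277). Its call was lost when any array but mock180 replicate 1 was left out. miR156a (0.12 as deposited), miR156h (0.06) and miR172b* (0.05), from the opposite arm of a miR172 precursor, were not called.

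Auxin-linked miRNAs and those of GAMYB factors had median log2 fold changes of 0.10 and 0.09, against -0.02 over all tested. miR160 and miR167 target auxin response factors, miR164 targets NAC factors of organ boundaries and lateral roots, miR390 starts the TAS3 small RNAs that limit further auxin response factors, and miR159 targets GAMYB-like factors. None of the 4 auxin-linked miRNAs passed as deposited, beside 16.3% of all tested, and 1 did after centring, beside 30.2%. This was miR164a (AT2G47585), at 1.15 and 1.02 with EBR and 1.01 and 0.981 in mock, whose centred log2 fold change was 0.14 (adjusted p = 0.0475, limma) and no longer passed when any of the 8 arrays was left out. The ratio of miR390a was 1.14 and 1.12 on the EBR180 arrays, against 0.954 and 1.02 on the mock180 arrays, and although the arrays did not overlap it was not called (log2 fold change 0.20, adjusted p = 0.333, and 0.0923 after centring). For miR160a (0.08), miR167a (-0.05), miR159a (0.07) and miR159b (0.11) the log2 fold changes were below the standard error of 0.125 as deposited, with 95% intervals that reach from -0.29 for miR167a to 0.35 for miR159b. After centring the standard errors were smaller, and miR160a was at 0.09 with an interval from 0.0006 to 0.181, but none of the 4 passed after adjustment (adjusted p between 0.131 and 0.522).

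Lower values with EBR were found for all 5 miRNAs of the PPR and TAS list, with a median log2 fold change of -0.12, although miR161.1 turned to 0.007 without EBR180 replicate 2. Of these, 1 fell past the threshold as deposited, beside 6.98% of all tested, and 2 after centring, beside 14%. miR161 and miR400 target mRNAs of PPR proteins, which process organelle transcripts, and miR173 starts the TAS1 and TAS2 small RNAs, many of which are directed at PPR mRNAs as well. miR161.2 (AT1G48267) had ratios of 1.06 and 0.875 on the EBR180 arrays, against 1.40 and 1.30 on the mock180 arrays. The groups were separated by more than the gap of either pair. The log2 fold change of -0.49 was the lowest of the 43 (adjusted p = 0.00291 from limma), and after centring it was -0.48 (adjusted p = 0.00547). As deposited the call was lost without EBR180 replicate 2, where the value was -0.35, while after centring it held with every array left out in turn. miR400 (AT1G32582) was at 1.20 and 1.04 with EBR and 1.24 and 1.29 in mock, and its log2 fold change of -0.16 passed after centring only (adjusted p = 0.0446), not with any array left out. miR158a (-0.12), miR173 (-0.07) and miR161.1 (-0.06) were not called.

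All 9 less conserved miRNAs had log2 fold changes below 0, with a median of -0.14, although miR163 turned to 0.04 without EBR180 replicate 2 or mock180 replicate 1 and miR825 to 0.10 without mock180 replicate 2. In each scaling 2 of them fell, miR854a in both, beside 6.98% of all tested as deposited and 14% after centring. The list holds the families placed in none of the other lists, many of which are known from *Arabidopsis* and its close relatives. miR846 (AT1G61226), which targets jacalin lectin mRNAs, had ratios of 0.994 and 0.886 on the EBR180 arrays, against 1.01 and 1.53 on the mock180 arrays. The mock arrays were far apart, and the first of them lay next to the EBR arrays. The log2 fold change was -0.40 (adjusted p = 0.0126, limma), and it was -0.10 without mock180 replicate 2 and -0.70 without mock180 replicate 1. The call was also lost without either EBR180 array (-0.49 and -0.32) and after centring (adjusted p = 0.137). miR854a (AT5G04995), reported to act on the RNA-binding protein UBP1b, was at 0.966 and 0.999 on the EBR180 arrays and at 1.21 and 1.33 on the mock180 arrays, with no overlap. Its log2 fold change was -0.36 (adjusted p = 0.0286) and -0.35 after centring (adjusted p = 0.0277). It was lost without EBR180 replicate 1 or mock180 replicate 2 in both scalings (-0.34 and -0.30 as deposited), without EBR180 replicate 2 as deposited (-0.39) and without either mock30 array when centred.

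miR869.2 (AT5G39693) was at 1.00 and 0.901 on the EBR180 arrays and at 1.11 and 1.14 on the mock180 arrays. It passed after centring only (log2 fold change -0.23, adjusted p = 0.0126 from limma, lost without either EBR180 array or mock180 replicate 2). The others reached from -0.15 for miR822, which targets DC1-domain mRNAs, and -0.14 for miR823, which targets the DNA methyltransferase CMT3, to -0.05 for miR163, which targets methyltransferases of small molecules, and -0.02 for miR825. miR824, a regulator of stomata through AGL16, had a log2 fold change of -0.10 and miR775 of -0.06. For miR822, miR823 and miR824 both EBR180 arrays lay below both mock180 arrays without passing the test. Over all tested miRNAs 24 of 43, or 55.8%, had arrays that did not overlap at 180 min as deposited (23.3% with EBR above mock and 32.6% below), and 31, or 72.1%, after centring (37.2% above and 34.9% below), so separation of the arrays was common among these miRNAs.

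The 3 tested miR169 members, which lower NF-YA subunits of a CCAAT-binding factor, were split. miR169h (AT1G19371) had ratios of 1.03 and 0.966 with EBR and 1.20 and 1.13 in mock. Its log2 fold change of -0.21 after centring passed (adjusted p = 0.0277 from limma), but not without either EBR180 array, mock180 replicate 1 or either EBR30 array. miR169d was at -0.08 and miR169a at 0.05, neither called. Of the 3 members 0 passed as deposited, beside 16.3% of all tested, and 1 fell after centring, beside 14%. Of the 3 miRNAs of the silencing machinery 0 passed in either scaling, beside 16.3% of all tested as deposited and 30.2% after centring. With 3 members this does not set the list apart. miR162a, which targets DCL1, had a log2 fold change of 0.06. miR403, which targets AGO2, was at -0.07, and miR168a, which targets AGO1, at -0.08. Their 95% intervals ran from -0.33 at the lowest to 0.30 at the highest.

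**Figure D2:**
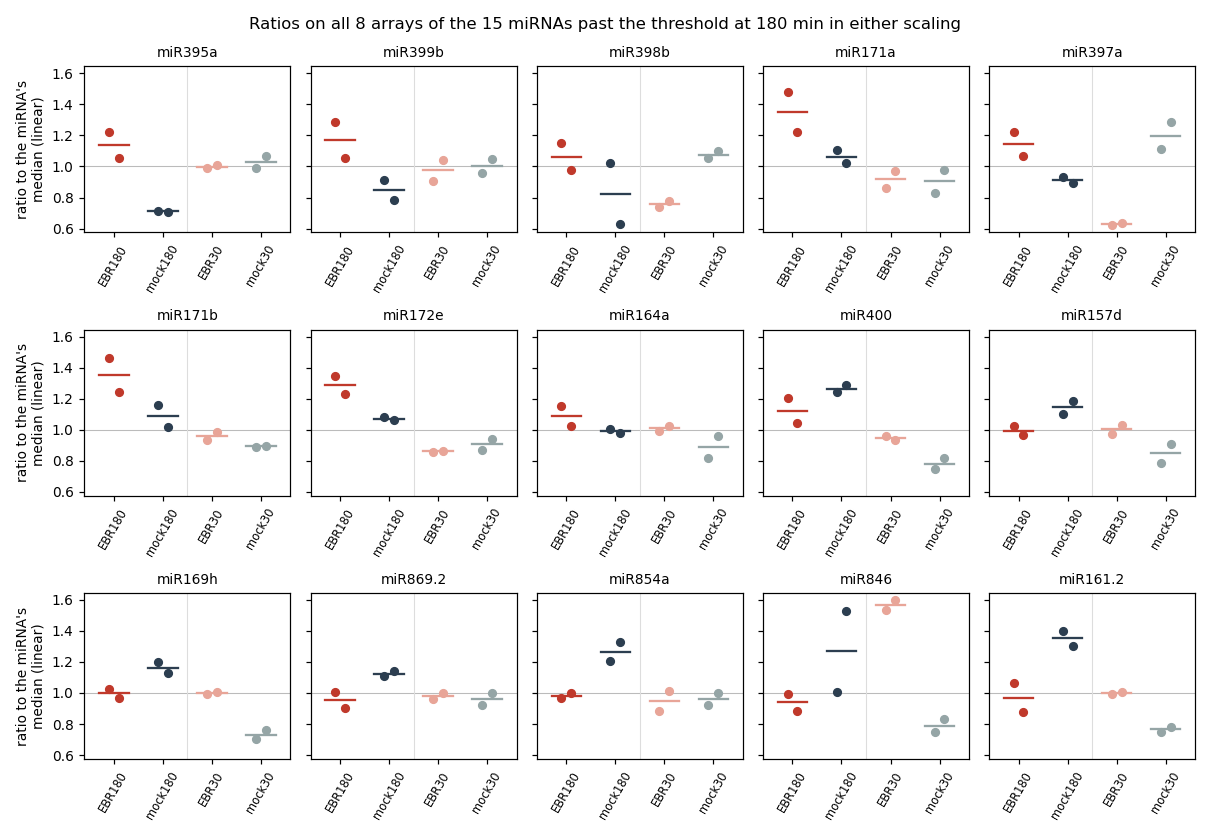
Each panel shows 1 of the 15 miRNAs called at 180 min in either scaling, with the deposited ratio to the miRNA's median (linear, no unit) on the y axis, a point per array and a line at the group mean; EBR180, mock180, EBR30 and mock30 run from left to right. In miR395a the mock180 arrays (0.713 and 0.710) lie below all others, in miR171a the EBR180 arrays (1.48 and 1.22) lie above all others, and in miR398b and miR846 the mock180 arrays are far apart.

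Relatives within a family did not always share the response, and their comparison within an array is free of array-wide scaling. The log2 ratio of miR395a minus that of miR395b was 0.36 and 0.15 on the EBR180 arrays, against -0.47 and -0.51 on the mock180 arrays, a change of 0.75. The loci that carry these names, AT1G26973 and AT1G26975, are direct neighbours in the RefSeq annotation (TAIR10.1), with MIR395c (AT1G26985) close by. The mature sequences are closely similar, and the loci were matched by name only. From which locus a signal came was not tested. miR161.2 and miR161.1 are cut from 1 precursor, yet miR161.2 minus miR161.1 was -0.02 and -0.16 with EBR and 0.42 and 0.25 in mock. For miR157d minus miR156a, which share SPL targets, the values were -0.18 and -0.20 with EBR and 0.15 and 0.12 in mock, the duplicates here lying very close together. miR172e minus miR172b* gave 0.25 and 0.31 with EBR and 0.10 and 0.05 in mock, and miR169h minus miR169a -0.11 and -0.14 with EBR and 0.20 and 0.10 in mock. By contrast miR171b minus miR171a changed by -0.03 and miR165a minus miR166a by -0.02, with overlapping groups. Of 10 such pairs 8 did not overlap between the groups, beside 55.8% of all single miRNAs as deposited and 72.1% after centring, each with the two-sided exact permutation p of 0.333 that is the smallest possible here, so none can pass 0.05. The pairs were chosen with the fold changes known.

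**Figure D3:**
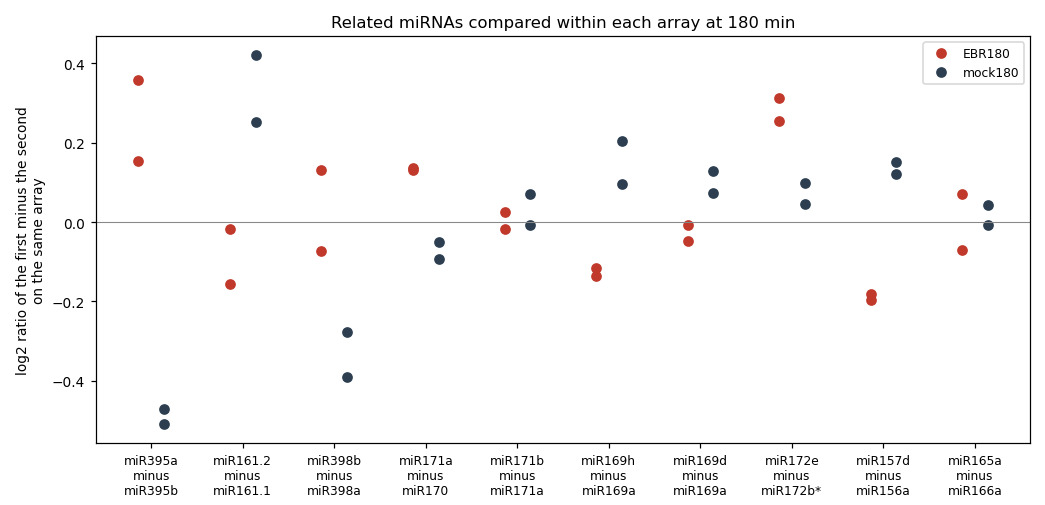
The y axis is the log2 ratio of the first miRNA minus that of the second on the same array, for 10 pairs of related miRNAs along the x axis, with a point for each of the EBR180 (left in each pair) and mock180 arrays. The widest separation is that of miR395a and miR395b (0.36 and 0.15 with EBR, -0.47 and -0.51 in mock), whereas miR171b and miR171a moved together.

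Whether the later response differs from the earlier one was tested as the EBR effect at 180 min minus that at 30 min. These effects share no array with each other, but the difference contains both. Here centring changes the size as well as the error, raising every difference by 0.18, since the array medians at 30 min were higher with EBR than in mock by 0.17 on the log2 scale. As deposited 11 of 43 miRNAs, or 25.6%, passed the adjusted threshold (9.3% with a higher and 16.3% with a lower effect at 180 min), and after centring 15, or 34.9% (18.6% higher and 16.3% lower). Since the effect at 180 min is part of the difference, miRNAs called at 180 min were favoured to pass it, and their overlap is no separate support. Of the 7 miRNAs called at 180 min as deposited 5 also differed between the times, and of the 13 called after centring 9 did. miR171a was among these 9, with a centred difference of 0.49 (adjusted p = 0.0117 from limma), against 0.32 as deposited (adjusted p = 0.175). The call of miR171a was lost without mock30 replicate 2 (0.47). miR172e differed by 0.51 after centring (adjusted p = 0.00122) and miR172b* by 0.46 (adjusted p = 0.00122), neither passing as deposited, where the differences were 0.34 (adjusted p = 0.156) and 0.29 (adjusted p = 0.205). miR390a also passed after centring only (0.40, adjusted p = 0.0280, against 0.22 as deposited), not without EBR180 replicate 2 (0.34), mock180 replicate 1 (0.35), EBR30 replicate 1 (0.30) or either mock30 array (0.43 and 0.37). In contrast, the lower values of miR854a and miR869.2 at 180 min were not shown to differ from those at 30 min, with centred differences of -0.16 (adjusted p = 0.362) and -0.09 (adjusted p = 0.282), and -0.34 (adjusted p = 0.156) and -0.27 (adjusted p = 0.222) as deposited. The same held for the higher values of miR171b and miR164a, with centred differences of 0.39 (adjusted p = 0.0512 from limma) and 0.12 (adjusted p = 0.175). As deposited these differences were 0.21 (adjusted p = 0.295) and -0.06 (adjusted p = 0.793).

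**Figure D4:**
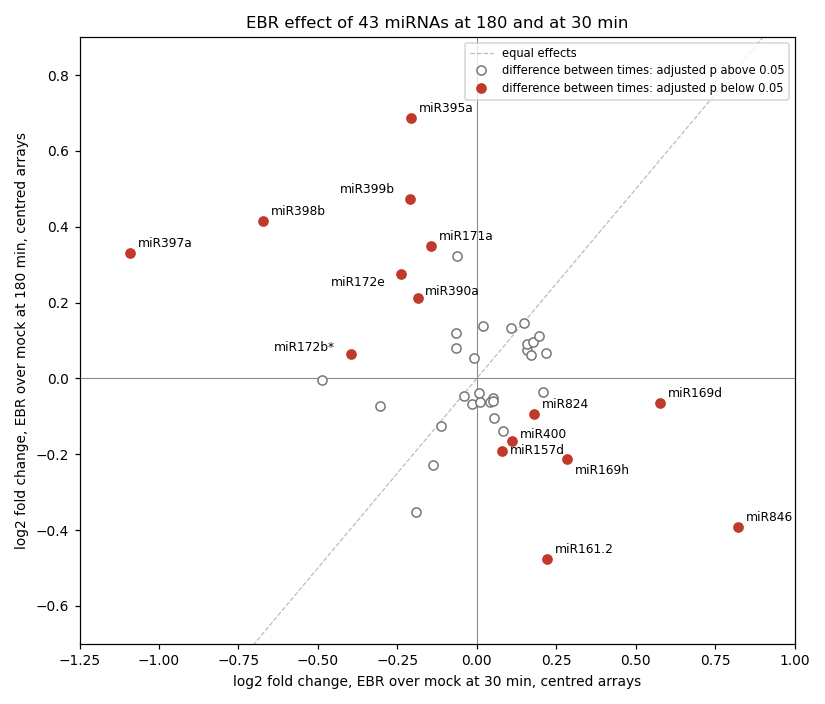
Each point is 1 of the 43 tested miRNAs, with the log2 fold change of EBR over mock at 180 min on the y axis and at 30 min on the x axis, both after array centring; filled points passed an adjusted p of 0.05 for the difference between the times. miR397a, miR398b, miR395a, miR399b, miR172e and miR171a lie in the upper left, higher with EBR at 180 min and lower at 30 min, and miR846, miR169d, miR169h and miR161.2 in the lower right. As deposited the values at 30 min are 0.17 higher, which puts miR395a at -0.04, miR399b at -0.05, miR172e at -0.07 and miR171a at 0.02. miR397a (-0.92) and miR398b (-0.51) stay lower with EBR at 30 min in that scaling.

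A difference at 180 min can come with a change over time on the EBR arrays, on the mock arrays or on both, and the centred contrasts of 180 against 30 min within each treatment are given for that reason. They share arrays with the comparison at 180 min and are a description of where the values lay. Centring lowers every one of these contrasts, by 0.13 with EBR and by 0.30 in mock on the log2 scale, and the split below depends on it. Over all tested, 27.9% passed with EBR and 34.9% in mock after centring, against 18.6% and 65.1% as deposited. Of the 15 miRNAs called at 180 min in either scaling, 5 passed over time with EBR only after centring, 7 in mock only, 1 in both and 2 in neither, whereas as deposited, a scaling added here after seeing the data, these counts were 2, 6, 4 and 3.

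The same class in both scalings was found for 7 of the 15. With EBR only, miR172e rose by a centred log2 difference of 0.45 (adjusted p = 0.000598 from limma; 0.58 as deposited) and miR171a by 0.43 (adjusted p = 0.0132; 0.56 as deposited). In mock only, miR395a fell by 0.84 (adjusted p = 4.77e-05; -0.53 as deposited), while miR161.2 (0.52, and 0.82 as deposited), miR400 (0.39 and 0.69) and miR169h (0.36 and 0.67) rose. miR397a moved in both treatments, rising by 0.73 with EBR (0.86 as deposited) and falling by 0.69 in mock (-0.39 as deposited). The other 8 changed class with the scaling. miR171b (0.36 with EBR after centring) and miR846 (-0.87 with EBR after centring) passed with EBR only when centred and in mock too as deposited (0.28 and 0.65). miR398b passed in mock only when centred (-0.73) and with EBR too as deposited (0.49). miR157d and miR854a passed in neither treatment when centred and in mock as deposited (0.44 and 0.40). miR399b and miR164a passed in mock when centred (-0.55 and -0.14) and in neither as deposited, where miR164a had the opposite sign in mock (0.16), and miR869.2 passed with EBR when centred (-0.17) and in neither as deposited (-0.04).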

How the data were processed

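Single-colour Agilent arrays with probes for 161 miRNAs were hybridised with Cyanine 3-labelled total RNA, 2 arrays in each of 4 groups. For each array the authors deposited a single value of every miRNA. Feature Extraction 9.1 is named in the submitters' processing notes, and GeneSpring, with a baseline at the median across samples, in the methods. The deposited values of the 43 miRNAs above 0.01 on all arrays are linear ratios with a median of 1. Background correction, scaling between arrays and the origin of the value 0.01 are not given in the sources used here, and no signal over background is held, so that the number of arrays limits the precision.

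Groups came from the sample titles. The log2 ratios were fitted with limma 3.58.1 in R 4.3.3, with a mean for each of the 4 groups over all 8 arrays, empirical Bayes moderation and Benjamini-Hochberg adjustment over 43 miRNAs at 0.05. The fit was repeated after centring each array on its median. Intervals are 95% intervals of the model. Without centring the moderation gave all miRNAs 1 common spread, so an miRNA with distant duplicates is judged by the same error as the others. That spread is estimated as if the 43 miRNAs were independent. Most miRNAs of an array moved together in EBR180 and mock30, so p-values as deposited can be too small and intervals too narrow. The code of the fit was tested on simulated data with independent noise, 1 spread for all miRNAs and no array-wide gap. It cannot show how the fit does on arrays with such gaps, as EBR180 and mock30 had. Exact permutation tests, two-sided, were used for array medians and pairs of relatives.

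All values per array are given for miRNAs past the threshold without or with centring, and other miRNAs by fold change and by list. The miRNA lists, members and pairs were chosen with earlier results of these data known. Alternatives covered scaling, quantile normalization, a replicate block, the spread, the samples fitted, the log scale, low values, the adjustment and each array left out. All 43 tested miRNAs matched a RefSeq locus by name. A locus given beside an miRNA is that match only and does not show that the signal came from it alone. No mature sequences are printed.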

Additional observations from a re-analysis of the deposited data

Results flagged for a closer look

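The EBR effect at 180 min minus that at 30 min passed the adjusted threshold in limma as deposited for 11 miRNAs. It was negative for miR846 (-1.39), miR161.2 (-0.87), miR169d (-0.82), miR169h (-0.67), miR157d (-0.45), miR400 (-0.45) and miR824 (-0.45), and positive for miR397a (1.25), miR398b (0.91), miR395a (0.72) and miR399b (0.51). With single arrays left out miR157d and miR824 lost the call without EBR180 replicate 2, mock180 replicate 2, either EBR30 array or mock30 replicate 1 (between -0.51 and -0.34), miR400 without these or mock180 replicate 1 (between -0.48 and -0.35), and miR399b without EBR180 replicate 1 (0.36), mock180 replicate 2 (0.40), EBR30 replicate 1 (0.41) or mock30 replicate 2 (0.44). That of miR398b was 0.56 without mock180 replicate 2 and stayed past the threshold, whereas after centring its difference (1.09) lost the call without either EBR180 array, EBR30 replicate 1 or either mock30 array (between 1.02 and 1.15).

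miR408, left out of the tests because of values at 0.01, was at 1.07 and 0.835 on the EBR180 arrays, both above the mock180 arrays (0.759 and 0.01). This difference was not tested. At 30 min miR408 was at 0.01 on both EBR30 arrays and at 0.806 and 0.717 on the mock30 arrays.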

How the results depend on the processing

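The 7 miRNAs called at 180 min as deposited became 13 after centring and 11 after quantile normalization, each keeping 5 of the first 7. The count was 4 with a mean-spread trend and robust prior, and 1 (miR395a) with the miRNAs at 0.01 on some arrays added. With each miRNA's own spread it was 0, both over the 4 groups (9 unadjusted) and at 180 min alone (4 unadjusted). That at 180 min alone is a t-test, whereas the methods name a one-way analysis for the arrays. With the replicate number as a block 7 and, after centring, 13 were again called, all of the first 7 and 12 of the 13 being shared; over the 43 miRNAs, the differences between duplicates correlated positively in all 6 pairs of groups (0.11 to 0.36, with 0.21 between EBR180 and mock180), but the labels give the numbers no meaning and there are only 2 of them, so whether they pair the arrays was not settled. The count lay between 2 (without EBR180 replicate 1 or mock180 replicate 2) and 9 (without either mock30 array) with single arrays left out. After centring the 13 became 7 with each miRNA's own spread and between 4 (without EBR180 replicate 1) and 13 with arrays left out, with 7 without EBR180 replicate 2, 6 without mock180 replicate 2 and 8 without either EBR30 array. The 11 that differed between times became 4 with own spread (13 with own spread after centring, an alternative chosen after seeing the data), 6 with the miRNAs at 0.01 on some arrays, 7 after adjustment over all 161 miRNAs and between 7 (without EBR30 replicate 1) and 13 (without mock30 replicate 2) with arrays left out. The median log2 fold change at 180 min stayed between -0.04 and 0.05. Direction turned for 13 uncalled miRNAs with small changes, which ranged with single arrays left out from -0.0149 to 0.14 for miR156h, from -0.0017 to 0.14 for miR159a, from -0.001 to 0.16 for miR160a, from -0.13 to 0.007 for miR161.1, from -0.0252 to 0.14 for miR162a, from -0.14 to 0.0447 for miR163, from -0.0359 to 0.20 for miR165a, from -0.14 to 0.0435 for miR167a, from -0.0412 to 0.15 for miR172b*, from -0.25 to 0.34 for miR398a, from -0.26 to 0.12 for miR403, from -0.14 to 0.10 for miR825 and from -0.22 to 0.0494 for miR827. That of miR398a was also -0.0298 after quantile normalization. The causes were not tested.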
